A study of Mus musculus with 2 samples.

Results

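The 31 genes described here are those of the piRNA pathway and of retrotransposon control in the mouse germ line. They were picked by symbol among the 32285 genes of the count table, where each has 1 row. The rule uses no measured value, although the list was chosen with earlier results of these data known. Germ-like nuclei were told from somatic nuclei by *Dazl*, *Dnd1* and *Sycp1*, and none of the 31 genes, nor the peaks at their starts, was used to form the clusters.

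Frozen whole testes from E14.5 mouse embryos were profiled with the 10x multiome assay, which reads nuclear RNA and open chromatin (ATAC) from each nucleus. Every embryo carried *Nr5a1-cre*, in which Cre is driven by *Nr5a1*, a gene of somatic and steroidogenic cells of the gonad, together with *Rosa-tdTomato*, and no group without these alleles stands beside them. There is 1 RNA library and 1 ATAC library, how many embryos were pooled is not stated, and no difference below has a replicate check. Intervals are 95% intervals that cover counting error only, and "called" means past a stated fold with such an interval excluding 1.

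PIWI proteins are Argonaute-family proteins that carry piRNAs, short RNAs cut from long precursors at the mitochondrial surface and in germ granules. Guided by these RNAs, PIWI proteins slice transposon transcripts in the cytoplasm and, in the fetal mouse testis, direct new DNA methylation to young retrotransposon promoters in the nucleus. The window in which this happens follows genome-wide loss of methylation, when male germ cells leave the cell cycle as prospermatogonia. Retrotransposon RNAs themselves were not analysed here.

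The 7198 nuclei kept held 76994656 UMIs and formed 12 classes, of which 1 was germ-like with 973 nuclei, or 13.5% of the nuclei kept (exact binomial interval 12.7% to 14.3%). Germ-like nuclei held a median of 15488 UMIs against 7343 in the 6225 somatic nuclei, and a median of 1868 against 1689 fragments at peaks. The name was carried by 2 of its 3 markers: *Dazl* stood at 726 UMIs per 1000000 UMIs of the group (CPM) in germ-like and 12.9 CPM in somatic nuclei, and *Sycp1* at 1102 and 13.4 CPM, while *Dnd1* reached 8.73 and 1.36 CPM. Of the 7 other germ genes checked, 4 were called higher: *Dppa4* at 152 against 2.57 CPM, *Hormad1* at 67.9 against 1.77 CPM, *Sycp3* at 32.4 against 2.12 CPM and *Pou5f1* at 23.4 against 5.81 CPM. *Dppa5a* was not called, at 19.7 against 13.6 CPM, and *Rhox6* and *Rhox9* had 2 and 1 UMIs in germ-like nuclei, too few for a call. In somatic nuclei the summed level of the 3 markers was 1.51% of that in germ-like nuclei, with a range from 0.861% in the Leydig-like class to 14.6% in the 44 erythroid-like nuclei, and this share is called carryover here. The sum is set by *Dazl* and *Sycp1*, whose own shares were 1.78% and 1.22%, whereas that of *Dnd1* was 15.6%. For the 4 other germ genes called higher the share ran from 1.69% for *Dppa4* to 24.85% for *Pou5f1*. Within the germ-like class, 228 nuclei in 2 subclusters had median doublet scores of 0.153 and were led by somatic genes such as *Robo2* and *Hsd17b3*, whereas the other 745 nuclei lay in subclusters with medians of 0.0145 or less. These 2 subclusters were deeper, with medians of 27448 and 24518 UMIs, so they weigh more in summed levels than their number of nuclei. Without them *Ddx4* stood at 595 CPM in place of 450 CPM, and *Rnf17* at 1047 in place of 806 CPM. Of the 31 genes only *Mov10* had a lower germ-like level without them, at 39.2 in place of 43.7 CPM. Further values without those 228 nuclei are given where they change a call for pooled somatic nuclei.

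Of the 31 genes, 30 had at least 20 UMIs over both groups, and 24 of these were called higher in germ-like nuclei at over 2-fold. None was called lower, and 6 were not called. Over all 19399 genes tested, 20% were called higher and 20% lower by the same rule. The median log2 ratio was 4.86 over the 30 genes and 0.05 over all genes tested. The 24 called genes were all 3 PIWI genes, all 11 genes of piRNA biogenesis, 6 of the 7 tested Tudor domain genes and all 4 germline silencing effectors. The 6 genes not called were *Tdrd3* and the 5 regulators that act in most cells. The split between germline factors and general regulators is seen in the map of levels over the 12 classes.

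**Figure D1:**
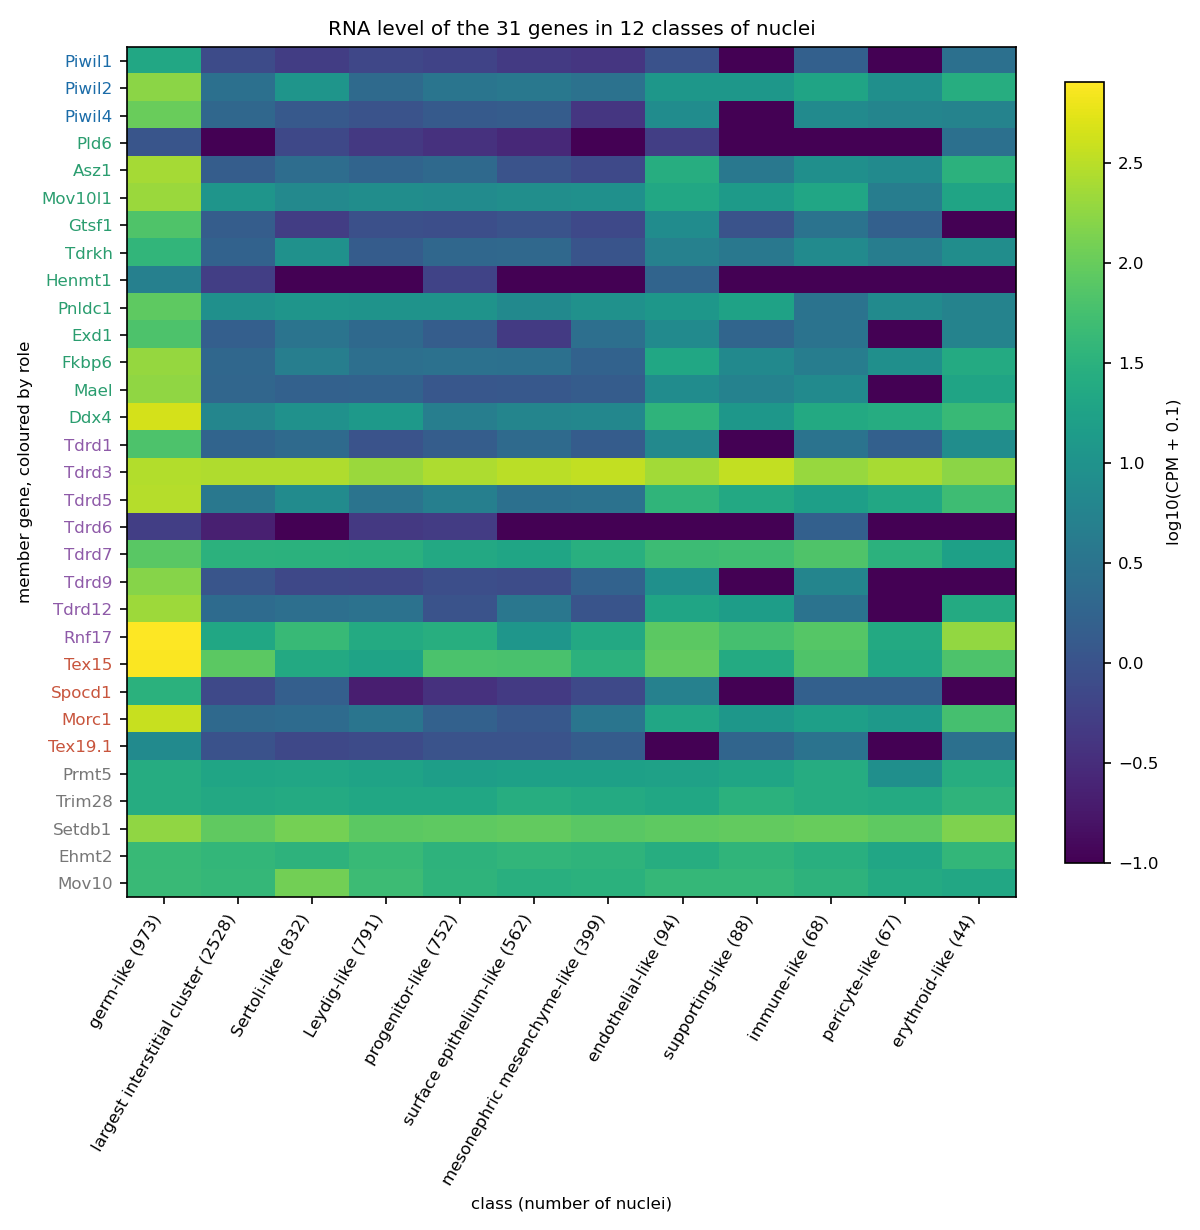
RNA level of each of the 31 genes (rows, names coloured by role) in the 12 classes of nuclei (columns, with the number of nuclei), as log10 of CPM plus 0.1. The germ-like column is bright for most of the first 26 rows, whereas *Tdrd3* and the last 5 rows, from *Prmt5* to *Mov10*, are above carryover in at least 10 of the 11 somatic columns.

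Each of the 3 PIWI genes was far above its somatic level. *Piwil4* encodes MIWI2, the nuclear PIWI protein of fetal male germ cells, and stood at 103 CPM in germ-like nuclei (98.4 to 107), with somatic classes from 0 to 7.79 CPM around a median of 1.25 CPM. Its ratio to pooled somatic nuclei was 60.5 (49.3 to 75.0). *Piwil2* encodes MILI, which slices transposon RNA in the cytoplasm, and stood at 166 CPM against 5.17 CPM, a ratio of 32.1 (28.5 to 36.3). *Piwil1* encodes MIWI, the PIWI protein best known from meiotic and later cells of the adult testis. It had 456 UMIs in germ-like nuclei, or 22.2 CPM, against 31 UMIs and 0.549 CPM in somatic nuclei, a ratio of 40.5 (28.2 to 60.4). No somatic class came within the interval of the germ-like level for any of the 3.

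The enzymes and scaffolds that make piRNAs followed the same division. *Mael*, a germ granule protein needed for transposon silencing, had the highest ratio of these 11 genes at 89.9 (74.5 to 109), from 180 CPM in germ-like and 2.0 CPM in somatic nuclei. *Asz1*, a scaffold on the mitochondrial surface where precursors are processed, reached 243 against 3.04 CPM, a ratio of 79.7. *Gtsf1*, a small zinc finger partner of PIWI proteins, reached 67.2 against 1.19 CPM, a ratio of 56.7. *Fkbp6*, a co-chaperone in the loading of piRNAs, stood at 191 against 3.81 CPM, a ratio of 50.2. *Ddx4*, the germ cell RNA helicase also known as mouse vasa homolog, stood at 450 against 9.42 CPM, a ratio of 47.8 (43.8 to 52.2). For comparison, *Dazl* and *Sycp1*, by which the class was named, had ratios of 56.2 and 82.2.

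The remaining 6 genes of this group had ratios from 3.94 to 32.8. *Exd1*, which forms a complex with *Tdrd12*, stood at 66.1 against 2.02 CPM, a ratio of 32.8, and *Mov10l1*, the RNA helicase that feeds precursors into processing, at 208 against 9.54 CPM, a ratio of 21.8. *Henmt1*, which methylates the 3′ end of piRNAs, had only 102 and 15 UMIs and a ratio of 18.7 (10.9 to 34.7). *Tdrkh*, a mitochondrial partner of PIWI proteins in trimming, had a ratio of 11.2, and *Pnldc1*, the trimming exonuclease, one of 8.97. *Pld6*, the mitochondrial nuclease zucchini, was hardly seen in nuclear RNA, with 20 UMIs in germ-like and 14 in somatic nuclei, and its ratio of 3.94 had a wide interval (1.89 to 8.43). *Tdrkh* and *Henmt1* each overlap a protein-coding gene on the opposite strand (*Oaz3* and *Gm9857*), and *Pnldc1* overlaps an antisense gene. *Piwil4* and *Tdrd9* likewise lie over genes of the opposite strand (*Gm10706* and *Rd3l*). Counting was run at the default settings of Cell Ranger ARC, under which reads in the sense of a gene are counted, and this was not checked here.

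**Figure D2:**
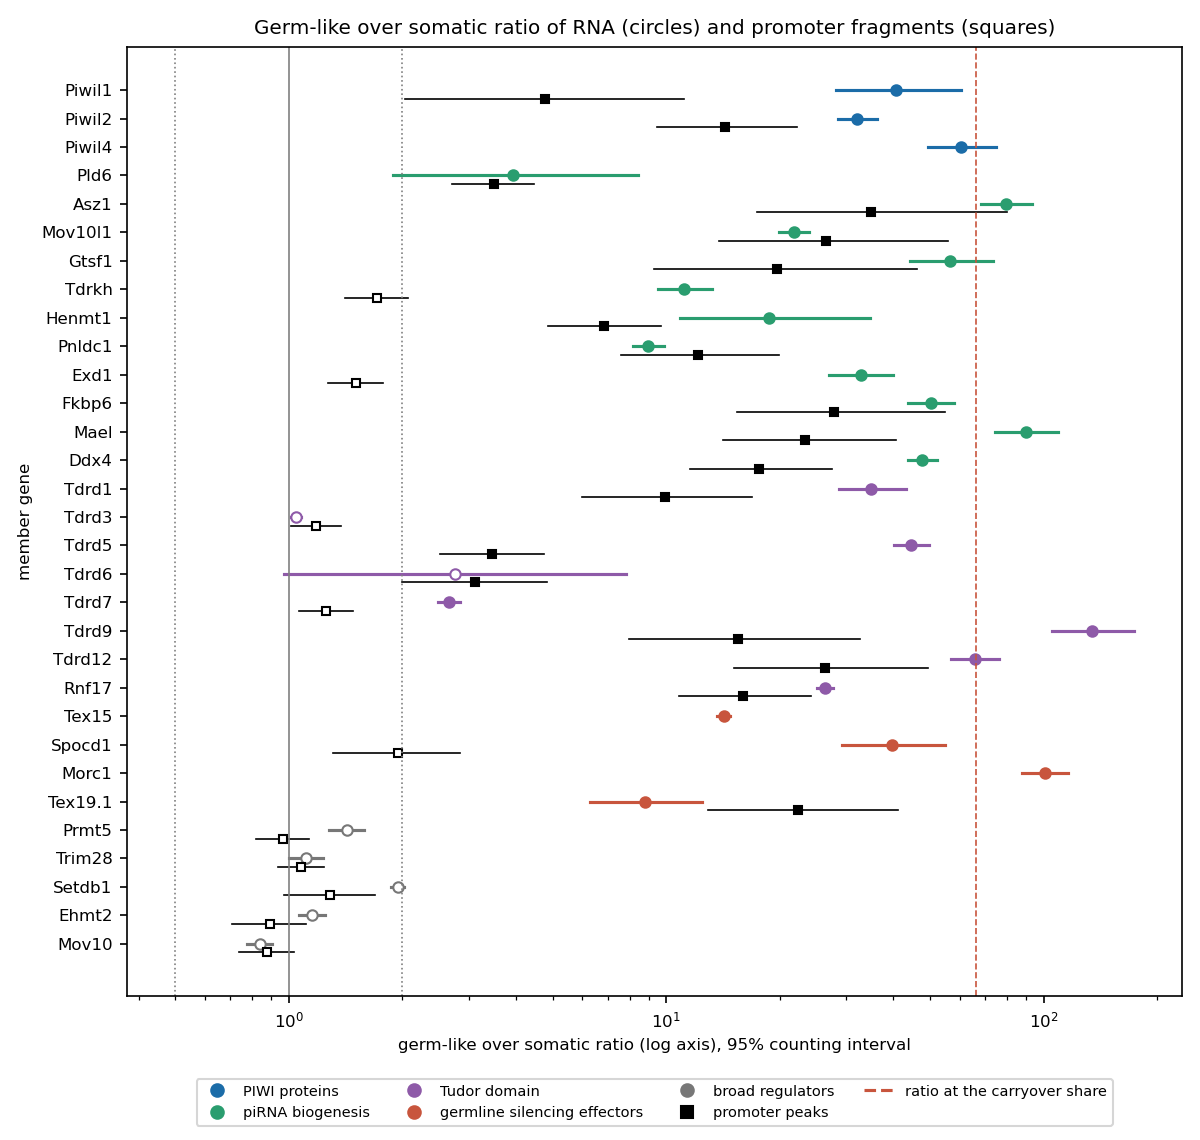
Ratio of germ-like to somatic nuclei for each gene, on a log axis, for RNA (circles, coloured by role) and for fragments in promoter peaks (black squares), with 95% counting intervals and open symbols where no call was made. Dotted lines mark 2-fold and 0.5-fold, and the dashed line is the ratio that carryover alone would give, which the RNA ratios of *Tdrd9*, *Morc1*, *Mael* and *Asz1* exceed.

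Tudor domain proteins bind methylated arginines of PIWI proteins and build the granules in which piRNAs are made, and this group was the most varied. *Tdrd9*, a helicase of the nuclear MIWI2 branch, had the highest ratio of all 31 genes at 134 (105 to 174), from 159 CPM in germ-like and 1.19 CPM in somatic nuclei. It rests on 67 somatic UMIs, and it was 19.5 with clusters from ATAC alone, where *Mael* at 23.1 was above it, and 271 at the automatic doublet threshold. *Tdrd12* followed at 65.7, *Tdrd5* at 44.5, *Tdrd1*, the partner of MILI, at 35.0, and *Rnf17* at 26.4. *Rnf17* had 16527 UMIs in germ-like and 1727 in somatic nuclei, and its somatic level of 30.6 CPM lay above carryover. *Tdrd7*, which also acts in the lens, stood at 80.8 CPM in germ-like nuclei and 16.3 to 68.8 CPM in somatic classes, highest in the immune-like one and above carryover in 10 of the 11, for a pooled ratio of 2.66 (2.48 to 2.84). *Tdrd3*, which binds histone arginine marks in many cell types, stood at 286 and 273 CPM, a ratio of 1.05 (1.02 to 1.08). *Tdrd6* had 9 UMIs in each group, too few for a call, and is known from the chromatoid body of later spermatids.

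The 4 germline silencing effectors were all called higher. *Morc1*, an ATPase of transposon silencing in the male germ line, had a ratio of 101 (87.9 to 116), from 380 against 3.77 CPM. *Spocd1*, a partner of MIWI2 in piRNA-directed DNA methylation, had a ratio of 39.6 (29.3 to 54.9), from 31.6 against 0.797 CPM. *Tex15*, which works in the same nuclear step, stood at 752 against 53.0 CPM, a ratio of 14.2 (13.7 to 14.8). *Tex19.1*, a mammal-specific inhibitor of retrotransposition, stood at 7.32 against 0.832 CPM, a ratio of 8.80 (6.30 to 12.5). *Spocd1* and *Tex19.1* rest on 647 and 150 UMIs in germ-like nuclei.

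The 5 regulators found in most cells did not pass 2-fold in either direction. *Setdb1*, an H3K9 methyltransferase, came nearest, at 183 against 94.4 CPM, a ratio of 1.94 (1.86 to 2.02). It was called at 2.22 once the 228 nuclei with high doublet scores were left out, and it overlaps *Cers2* on the opposite strand. *Prmt5*, the methyltransferase that marks PIWI arginines, had a ratio of 1.42, *Ehmt2* (G9a) one of 1.15, and *Trim28* (KAP1), the co-repressor of KRAB zinc finger proteins, one of 1.11. *Mov10*, the somatic relative of *Mov10l1* and a restriction factor for retroelements, was the only gene of the 30 with a ratio below 1, at 0.838 (0.777 to 0.904), which became 1.04 when somatic classes were weighted equally. It reached 119 CPM in Sertoli-like nuclei (112 to 126), where 69.2% of nuclei held a UMI and 21.8% did once thinned to 2000 UMIs, against 43.7 CPM, 44.5% and 8.03% in germ-like nuclei. Thinning left out 3 Sertoli-like and 2 germ-like nuclei of fewer UMIs. In the other somatic classes *Mov10* lay at or below 47.7 CPM.

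Carryover can place germ RNA in somatic nuclei, so each somatic level was set against the value that the carryover share of its class predicts. A gene counted as above carryover where the lower limit of its level was more than 2 times that value. In pooled somatic nuclei the marker *Dnd1* and the checked genes *Pou5f1*, *Sycp3* and *Dppa5a* were themselves above it. *Dazl*, *Sycp1*, *Dppa4* and *Hormad1* were not, so these calls depend on the genes that define carryover. In pooled somatic nuclei 15 of the 31 genes were above it and 16 were not. Among genes with at least 20 UMIs these were 14 of 30 genes (46.7%), against 95.8% of all 19399 genes tested. Of the 24 genes called higher in germ-like nuclei 8 were above it, against 79.0% of all 3889 genes called higher. Carryover is a share of the germ-like level, so genes of high ratio tend not to be above it. In pooled nuclei these counts therefore largely restate the ratios given earlier and are no separate result on carryover. With clusters from ATAC alone 10 of the 31 were above it, since *Mov10l1*, *Tdrkh*, *Rnf17*, *Tex15* and *Tex19.1* no longer were, and at the automatic doublet threshold 19 of the 31 were, with *Piwil2*, *Henmt1*, *Exd1* and *Tdrd1* added. Without the 228 nuclei of high doublet score 16 of the 31 were, with *Henmt1* added. The 9 genes above it in none of the 11 somatic classes were *Piwil1*, *Piwil4*, *Asz1*, *Gtsf1*, *Fkbp6*, *Mael*, *Tdrd9*, *Tdrd12* and *Morc1*. At the other end, 7 genes were above it in at least 10 classes, namely the 5 general regulators, *Tdrd3* and *Tdrd7*. The genes in between were above it in 1 to 7 classes. The shares of all genes tested that were above it in no class, or in at least 10, were not counted.

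With the clusters used here, *Tex15* was above carryover in 6 classes, with 82.2 CPM in the largest interstitial cluster (77.8 to 86.7), 64.0 CPM in progenitor-like, 61.6 CPM in surface epithelium-like and 18.4 CPM in Leydig-like nuclei, where carryover predicts 6.48 to 8.25 CPM. A *Tex15* UMI was found in 30.8% of nuclei of the largest interstitial cluster, 12.3% of the Leydig-like class and 95.4% of the germ-like class, and after thinning in 14.6%, 2.92% and 67.9%. In the Sertoli-like class 19 of the 31 genes were above carryover, against 90.6% of all genes tested. The other somatic classes had 5 to 16 of the 31, with shares of all genes tested from 41.0% to 91.6%. The class with the lowest count and share was the erythroid-like one, which held the fewest UMIs, 369205, and had the highest carryover share, 14.6%. Its 10 UMIs of *Piwil2* lay in 2.27% of its nuclei, a clumping that counting intervals do not cover. *Tdrkh* reached 9.42 CPM in Sertoli-like nuclei (7.6 to 11.5), against a Leydig-like level of 1.25 CPM, with carryover at 0.347 and 0.317 CPM. *Piwil2* was above carryover in the Sertoli-like class alone, with 10.7 CPM (8.79 to 13.0) against a Leydig-like level of 2.16 CPM, the lowest of the somatic classes, and with carryover at 1.56 and 1.43 CPM. Supporting-like nuclei stood at 11.5 CPM (6.14 to 19.7) with carryover at 5.37 CPM, and did not pass the rule. Endothelial-like, immune-like and erythroid-like nuclei, at 11.7, 19.0 and 27.1 CPM, did not pass it either. Without thinning, a *Piwil2* UMI was found in 8.65% of Sertoli-like and 2.40% of Leydig-like nuclei, and after thinning in 3.14% and 0.508%. *Dazl*, which marks carryover, was found after thinning in 1.21% of Sertoli-like and 1.40% of Leydig-like nuclei, shares whose intervals overlap. The median depths of these classes were 9845 and 9587 UMIs. *Ddx4* went the other way, above carryover in the Leydig-like class alone, at 12.4 CPM (10.2 to 15.0) with carryover at 3.87 CPM. Its Sertoli-like level of 9.31 CPM, with carryover at 4.24 CPM, did not pass the rule. *Pnldc1* was above carryover in 7 classes.

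The ATAC library gave a second measure in the same nuclei: fragments with an end in a called peak within 1 kb of the gene's start, given as normalised fragment counts (per 1000000 fragments at peaks of the group). Of the 31 genes 28 had such a peak, and 18 of these were called higher in germ-like nuclei at over 2-fold, with none lower. Over all 19252 promoters tested, 10.5% were called higher and 4.21% lower. The median log2 ratio was 2.51 over the 28 genes and 0.20 over all promoters tested. RNA and promoter were both called for 17 genes, and RNA but not the promoter peak for 4. The shares of all genes called in both, or in RNA only, were not counted, so these overlaps have no background. *Tdrd6* was called at its promoter only, with 36 fragments in germ-like and 55 in somatic nuclei and a ratio of 3.12 (1.99 to 4.84). With germ nuclei defined by a UMI of each marker and somatic nuclei by none, 5 promoter calls ended. Of these, *Asz1* at 58.0, *Gtsf1* at 25.5 and *Tdrd9* at 12.2 kept intervals above 1 but had too few fragments, whereas those of *Tdrd6* (0.708 to 5.68) and *Piwil1* (0.521 to 23.9) included 1.

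Fragment counts at single promoters were small, and intervals are wide. At *Asz1* (peak at chr6:18108604-18109515, mm10) 66 fragments came from germ-like and 9 from somatic nuclei, or normalised counts of 26.6 against 0.760, a ratio of 35.0 (17.4 to 79.9). At *Fkbp6* the counts were 76 and 13 and the ratio 27.9 (15.4 to 54.8), and at *Mov10l1* 61 and 11, with a ratio of 26.5 (13.8 to 55.8). *Tdrd12* had 83 and 15 fragments and a ratio of 26.4, *Mael* 93 and 19 and a ratio of 23.4, and *Tex19.1* 75 and 16 and a ratio of 22.4. For these 6 genes the normalised fragment count in somatic nuclei was at most 1.60. Further promoters called higher were *Gtsf1* at 19.6, *Ddx4* at 17.6, *Rnf17* at 16.0, *Tdrd9* at 15.5, *Piwil2* at 14.3, *Pnldc1* at 12.1 and *Tdrd1* at 9.94. *Henmt1*, at 6.84, shares its start with *Gm9857*, and *Piwil1*, at 4.77, rests on 13 fragments in each group. *Pld6* at 3.49 and *Tdrd5* at 3.46 had the lowest ratios of the genes called in both measures, and *4930518J20Rik* starts within 1 kb of *Tdrd5*.

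In 4 genes RNA was called and the promoter peak was not. *Exd1* had an RNA ratio of 32.8 and a promoter ratio of 1.51 (1.27 to 1.78), from 185 and 586 fragments, and *Chp1* starts within 1 kb of it. *Tdrkh* had an RNA ratio of 11.2 and a promoter ratio of 1.71, from 148 and 413 fragments, and *1700040D17Rik* and *Gm42463* start within 1 kb of it. *Spocd1* had 40 and 98 fragments and a promoter ratio of 1.95 (1.31 to 2.84), with an RNA ratio of 39.6. *Tdrd7* had a promoter ratio of 1.26. Without the 228 nuclei of high doublet score, *Spocd1* at 2.67 and *Tdrkh* at 2.03 were called too, which makes 20. In that setting 14.3% of all promoters tested were called higher and 7.52% lower. The 5 general regulators and *Tdrd3* had promoter ratios between 0.877 and 1.29, with intervals that include 1 for all but *Tdrd3* (1.02 to 1.37).

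*Piwil4*, *Tex15* and *Morc1* had no called peak within 1 kb, so all fragments with an end within 500 bp of the start were counted for them. These counts were scaled to all fragments of the group and not to those at peaks, so their ratios are on another scale than the peak ratios. *Piwil4* (starts between chr9:14740721-14740733, minus strand) had 40 fragments in germ-like and 9 in somatic nuclei, a ratio of 17.5 (8.36 to 41.0). *Morc1* had 27 and 7, a ratio of 15.2 (6.46 to 41.3). *Tex15* had 3 in each group, too few to tell the groups apart. Its position in the deposited gene table, chr8:33570544, lies inside the annotated gene (chr8:33516738-33585582, plus strand), whose other transcripts begin further 5′, and fragments at those starts were not counted. *Piwil1* and *Trim28* also have an annotated transcript that begins 5′ of the window used. Peaks had been called over all nuclei together, of which germ-like nuclei are a minority.

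**Figure D3:**
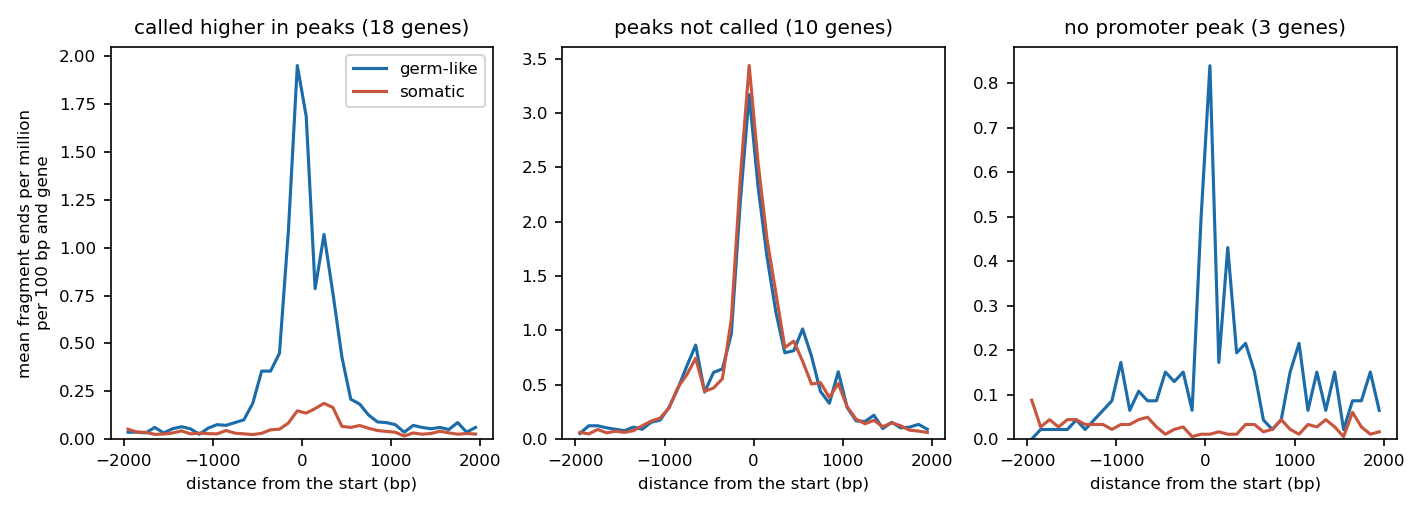
Mean number of fragment ends (per 1000000 fragment ends of the group, per 100 bp and gene) against distance from the gene's start (bp, negative is upstream) in germ-like and somatic nuclei, for the 18 genes whose peaks were called higher, the 10 whose peaks were not called and the 3 with no peak, on vertical scales that differ. In the first set the mean at the start was 1.82 in germ-like and 0.142 in somatic nuclei, in the second 2.75 and 2.99, and in the third 0.667 and 0.0109.

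Promoter sequences were taken from RefSeq (GRCm38.p6), where 24 of the 31 genes matched, without *Piwil2*, *Pnldc1*, *Tdrd6*, *Rnf17*, *Tex15*, *Spocd1* and *Morc1*. Windows of 300 bases, from 250 before to 50 after the start, were searched on both strands for 4 motifs: CCAAT, the E-box CACGTG, the E2F-type core GCGGGA and the cAMP response element TGACGTCA. The E-box was found in 8 of the 18 matched genes that were called higher in RNA and in 1 of the other 6 (*Ehmt2*), and in 7.15% of 32817 promoters of this length. The share was 10.9% among promoters with a CpG content of at least 0.5 observed over expected, and 9.98% among those of all genes called higher in germ-like nuclei. The E2F-type core was found in 5 of the 18 genes, 3 of the other 6 and 19.97% of all promoters, the CCAAT box in 8 of the 18, 2 of the other 6 and 37.4% of all, and the cAMP response element in none of the 24 and 1.79% of all. The median CpG content was 0.756 observed over expected in the 18 genes, 0.732 in the other 6 and 0.383 over all promoters. For each of the 24 genes 1 window was taken, at the peak with the most fragments where a window lay in a peak. The backgrounds hold all windows without such a choice, so the shares and medians compare windows chosen in unlike ways. A match is a description of these letters and not a bound site.

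The stretches that hold CACGTG are shown for 7 of the 8 genes, since their RNA and promoter were both called higher in germ-like nuclei. Each ends at or before the first start given for the gene in the deposited table, which for *Piwil1* lies inside the annotated gene, and capitals mark CACGTG. *Ddx4* has its copy, with the first base at -29 from the RefSeq start, inside the region of its starts in that table and is not printed. They lie at chr5:128736054-128736173 (plus strand) for *Piwil1*, chr11:59787658-59787777 (minus) for *Pld6*, chr15:88982744-88982908 (plus) for *Mov10l1*, chr5:135350045-135350164 (minus) for *Fkbp6*, chr1:166238748-166238977 (minus) for *Mael*, chr19:56826089-56826208 (plus) for *Tdrd1* and chr12:111971384-111971558 (plus) for *Tdrd9*.
Piwil1: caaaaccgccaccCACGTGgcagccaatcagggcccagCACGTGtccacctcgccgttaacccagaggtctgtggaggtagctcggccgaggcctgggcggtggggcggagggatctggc
Pld6: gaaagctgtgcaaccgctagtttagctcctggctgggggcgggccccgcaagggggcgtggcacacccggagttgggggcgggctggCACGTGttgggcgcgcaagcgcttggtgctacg
Mov10l1: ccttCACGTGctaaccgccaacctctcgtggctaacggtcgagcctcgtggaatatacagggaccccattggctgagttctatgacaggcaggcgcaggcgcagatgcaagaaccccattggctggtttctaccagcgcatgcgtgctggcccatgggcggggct
Fkbp6: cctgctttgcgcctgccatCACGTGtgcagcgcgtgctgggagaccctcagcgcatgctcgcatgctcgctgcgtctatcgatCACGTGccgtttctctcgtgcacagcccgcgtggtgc
Mael: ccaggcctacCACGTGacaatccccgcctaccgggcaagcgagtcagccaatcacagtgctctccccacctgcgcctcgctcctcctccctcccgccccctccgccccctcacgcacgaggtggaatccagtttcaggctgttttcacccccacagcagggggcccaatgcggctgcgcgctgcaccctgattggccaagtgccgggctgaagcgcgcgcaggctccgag
Tdrd1: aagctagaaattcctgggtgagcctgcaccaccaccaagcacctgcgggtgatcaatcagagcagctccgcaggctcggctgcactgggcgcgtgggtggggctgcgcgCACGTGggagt
Tdrd9: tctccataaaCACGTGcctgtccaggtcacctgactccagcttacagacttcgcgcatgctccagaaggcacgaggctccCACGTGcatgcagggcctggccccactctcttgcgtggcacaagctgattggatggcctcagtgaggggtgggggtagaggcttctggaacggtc
*Piwil1*, *Fkbp6* and *Tdrd9* each have 2 copies, and their promoter ratios were 4.77, 27.9 and 15.5. *Pld6*, *Tdrd1*, *Mov10l1* and *Mael* have 1 copy, with promoter ratios of 3.49, 9.94, 26.5 and 23.4, a range that overlaps that of the genes with 2 copies.

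Germ-like nuclei were then clustered alone, again without the 31 genes, to see how the pathway varied inside the germ line. The subcluster with the highest share of cell cycle UMIs, 1.62% over 97 genes, held 82 nuclei led by *Top2a* and *Mki67* and is called cycling. The one with the lowest share, 0.656%, held 258 nuclei and is called low-cycling. They had similar depth, with medians of 16740 and 15810 UMIs, and similar summed markers of somatic classes, at 758 and 796 CPM. Summed germ markers were 2333 and 2407 CPM, but single markers differed in opposite directions. *Dazl* stood at 1146 CPM in cycling and 812 CPM in low-cycling nuclei, and *Sycp1* at 1176 and 1585 CPM. A further 405 nuclei formed the largest subcluster, with 0.715% cell cycle UMIs. This is close to the 0.656% of the low-cycling one, whose name marks the lowest share and not a gap from the largest subcluster. What sets these 2 apart was not tested, and differences between them cannot be read as differences in cycling. At 1.5-fold, 16 of the 29 members tested were called: 12 higher and 4 lower in low-cycling nuclei. Over all 12372 genes tested, 19% were called higher and 15.8% lower. Of the other germ genes checked, *Sycp3* was called higher in low-cycling nuclei, at a ratio of 2.67. *Hormad1* at 0.452 and *Pou5f1* at 0.579 were called lower, and *Dppa4* and *Dppa5a* were not called.

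*Spocd1*, *Tdrd9* and *Piwil4*, genes of the nuclear, MIWI2 branch, were called higher in low-cycling nuclei. *Spocd1* stood at 3.25 CPM in cycling, 9.19 CPM in the largest subcluster and 79.3 CPM in low-cycling nuclei, a ratio of low-cycling to cycling of 24.4 (10.4 to 75.7) that rests on 5 against 344 UMIs. *Tdrd9* stood at 50.02, 85.2 and 357 CPM, a ratio of 7.15 (5.68 to 9.10). *Piwil4* stood at 42.9, 81.3 and 206 CPM, a ratio of 4.81 (3.74 to 6.27). In all 3 genes the largest subcluster lay between the other two, although for *Spocd1* its interval overlapped that of cycling nuclei. *Gtsf1* stood at 31.2, 38.9 and 145 CPM, a ratio of 4.66 whose interval overlaps that of *Piwil4*, *Morc1* at 256, 374 and 668 CPM, a ratio of 2.61, and *Tex15* at 653, 645 and 1355 CPM, a ratio of 2.07. For *Gtsf1* and *Tex15* the intervals of the largest and the cycling subclusters overlapped. *Henmt1* had 0 UMIs in cycling and 42 in low-cycling nuclei, or 9.68 CPM, at least 4.97-fold higher than the 3 counts that a count of 0 allows, while the exact lower limit of the ratio, which counts the error of both groups, was 3.86.

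Another 4 genes called higher had ratios from 1.62 to 2.34. *Mael* rose from 145 to 339 CPM, a ratio of 2.34, *Piwil1* from 17.5 to 40.3 CPM, a ratio of 2.30, *Tdrd1* from 50.7 to 95.9 CPM, a ratio of 1.89, and *Asz1* from 210 to 340 CPM, a ratio of 1.62. *Piwil2* stood at 164 and 240 CPM, a ratio of 1.47 (1.28 to 1.69) that was not called. *Ddx4* at 0.921 (0.853 to 0.995), *Tdrd5* at 0.935, *Fkbp6* at 1.15, *Mov10l1* at 1.15 and *Rnf17* at 1.25 were not called either. Their RNA levels in cycling and low-cycling nuclei differed by less than the 1.5-fold required.

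Of the 4 genes called lower in low-cycling nuclei, 3 were general regulators. *Prmt5* stood at 40.3 CPM in cycling and 18.9 CPM in low-cycling nuclei, a ratio of 0.469, *Mov10* at 56.5 and 28.8 CPM, a ratio of 0.510, and *Trim28* at 39.6 and 20.7 CPM, a ratio of 0.523. The remaining one was *Tex19.1*, with 14.3 and 6.68 CPM from 22 and 29 UMIs, a ratio of 0.468 (0.260 to 0.854). *Ehmt2* went the other way, at 32.5 and 49.3 CPM, a ratio of 1.52 (1.11 to 2.11). When germ-like nuclei were instead split at the median share of cell cycle UMIs, 7 genes were called, against 6.72% of all genes tested higher and 4.4% lower. The 6 higher ones, in nuclei of the lower share, were *Piwil1*, *Piwil4*, *Gtsf1*, *Henmt1*, *Tdrd9* and *Spocd1*, and the lower one was *Tex19.1*.

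**Figure D4:**
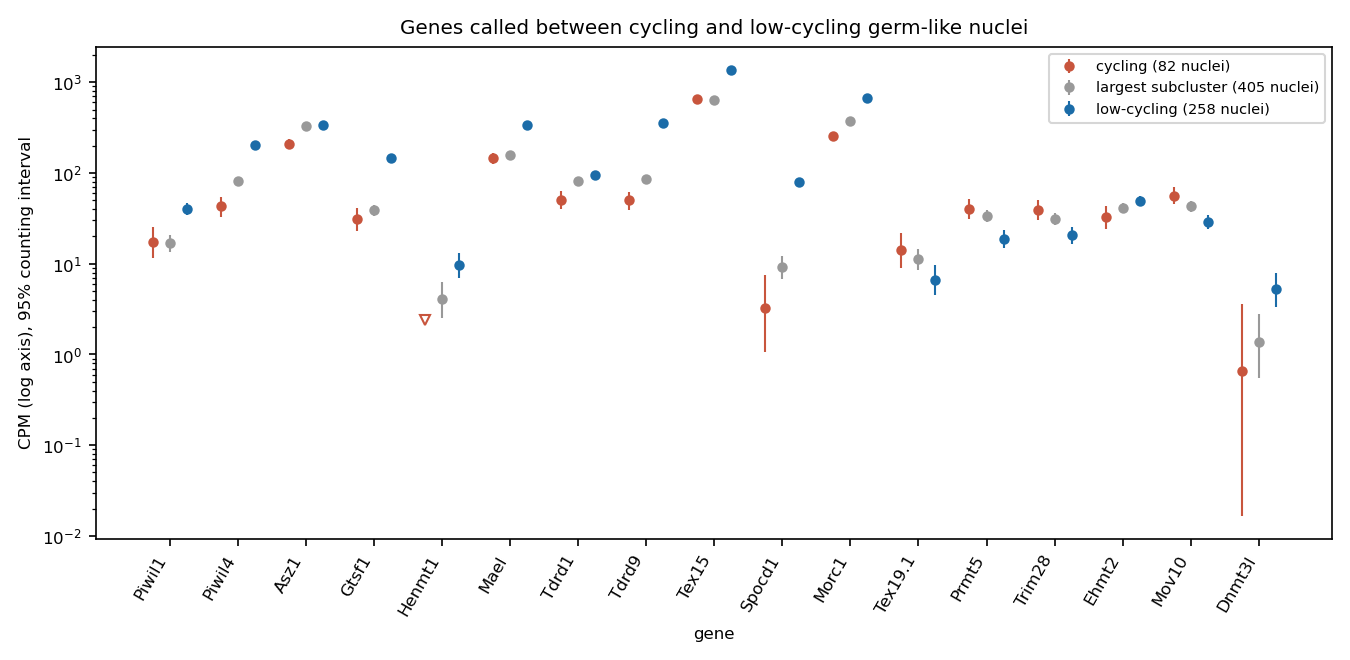
Level in CPM (log axis) with 95% counting intervals of the 16 members called between germ-like subclusters and of *Dnmt3l*, in cycling (82), largest (405) and low-cycling (258) germ-like nuclei; the open triangle is the upper limit of *Henmt1*, with 0 UMIs. *Spocd1*, *Tdrd9*, *Piwil4*, *Gtsf1* and *Morc1* are highest in low-cycling nuclei, and *Prmt5*, *Trim28*, *Mov10* and *Tex19.1* are lowest there.

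At the promoters the same subclusters held few fragments. Of 28 promoters compared, 25 had intervals of the ratio that include 1, with 1 above and 2 below it. Over all 19300 promoters with a peak 1.89% had an interval above 1 and 2.61% one below it. *Tdrd9* had 0 fragments in cycling and 17 in low-cycling nuclei, at least 2.67-fold higher than 3 counts allow, with an exact lower limit of the ratio of 1.94. *Prmt5* had a ratio of 0.454 (0.258 to 0.80) and *Tdrd3* one of 0.589 (0.361 to 0.969). For *Spocd1* the counts were 3 and 12, and a difference was not detectable at this depth.

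Further genes of the pathway and of retroelement control were taken from 4 lists, whose counts stand beside the 20% of all genes tested called higher and 20% called lower. Of 13 other piRNA and germ granule genes, 9 were called higher in germ-like nuclei, none lower and 4 were not called, with a median log2 ratio of 1.24. *Btbd18*, a factor for transcription of piRNA clusters, stood at 46.8 against 0.779 CPM, a ratio of 60.1. *Stk31*, a Tudor domain kinase, had a ratio of 54.9, and *Nanos2*, an RNA-binding protein of male fetal germ cells, one of 22.8. Of 21 genes of H3K9, KRAB and HUSH silencing, 3 were called higher, 2 lower and 16 were not called, with a median of 0.32. *Suv39h2* at 4.32 and the HUSH subunits *Mphosph8* at 2.07 and *Pphln1* at 2.04 were the higher ones, and the KRAB zinc finger genes *Zfp57* at 0.237 and *Zfp809* at 0.431 the lower ones. Without the 228 nuclei of high doublet score *Zfp57* stood at 0.0399 and *Zfp809* at 0.181, and *Clns1a* of the first list at 2.18 and *Wiz* of the second at 2.11 were called higher too. In that setting 22.8% of all genes tested were called higher and 25.6% lower.

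Of the 5 DNA methylation genes 1 was called higher, 1 lower and 3 were not called, with a median log2 ratio of -0.79. *Dnmt3l*, the catalytically inactive cofactor of de novo methylation in germ cells, had 60 UMIs in germ-like and 5 in somatic nuclei, a ratio of 33.1 (13.4 to 105), whereas *Dnmt3a* stood at 104 against 254 CPM, a ratio of 0.411. *Dnmt1*, *Uhrf1* and *Dnmt3b* were not called, at 0.665, 0.534 and 0.578. Without the 228 nuclei *Dnmt3a* stood at 0.219, and *Uhrf1* at 0.337 and *Dnmt3b* at 0.432 were called lower. Between germ-like subclusters *Dnmt3l* had 1 UMI in cycling and 23 in low-cycling nuclei, a ratio of 8.16 with an interval from 1.33 to 336. *Dnmt1* at 0.401 and *Uhrf1* at 0.355 were called lower in low-cycling nuclei. *Uhrf1* is itself among the cell cycle genes by which the 2 subclusters were picked, so its difference is partly set by that choice. Of the 5 retroelement restriction genes, *Adar* at 2.22 and *Samhd1* at 2.04 were called higher in germ-like nuclei, and *Zc3hav1* at 0.405 and *Apobec3* at 0.415 lower. *Zc3hav1* stood at 27.8 CPM in germ-like nuclei, near the median of 24.8 CPM over somatic classes, with 197 CPM in Sertoli-like nuclei. *Apobec3* stood at 3.37 CPM against a median of 3.39 CPM, with 77.6 CPM in immune-like nuclei. Without the 228 nuclei the ratios of *Zc3hav1* and *Apobec3* were 0.141 and 0.0785, from 9.64 and 0.637 CPM in germ-like nuclei. *Trex1* had no UMI in any nucleus kept, which allows up to 0.0390 CPM.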

How the data were processed

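RNA and chromatin of E14.5 testis nuclei were read as 1 library each. The authors ran Cell Ranger ARC 2.0.1 on mm10 (submitters' processing notes) and deposited raw counts, not normalized, for 9833 barcodes: UMI counts of 32285 genes and cut counts of 109215 peaks. Of nonzero peak counts 87.1% were even, so fragments with an end in a peak were counted from the deposited fragment list, each unique fragment once (mean of 1.09 read pairs).

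The study's thresholds on RNA and ATAC quality were applied, except its limit on fragments at blacklisted regions. Its doublet calls from both assays and its removal of ambient RNA were not repeated. UMIs had to be less than 10% mitochondrial, 10% ribosomal protein and 0.5% haemoglobin. Nuclei needed more than 500 genes, more than 20% of their fragments in peaks, and a number of such fragments between 250 and 25000. This left 7668, of which 470 (6.13%) were removed by rank of the Scrublet score (scanpy 1.11.5). Doublets missed by the score remain, and free RNA was not removed. Medians were 7948 UMIs and 4477 fragments per nucleus. Seurat 5.3.0 clustered RNA and ATAC jointly at a resolution of 0.3, without the 31 genes, the listed genes and the peaks at their starts, and clusters were named from markers. The largest, of 2528 interstitial nuclei, was left unnamed, and cell cycle genes led the progenitor-like one.

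Summed counts were compared as ratios with exact conditional binomial intervals (levels by exact Poisson, shares by Clopper-Pearson). With 1 library there is no test between groups. A gene was called past 2-fold (1.5-fold between germ-like subclusters, made from RNA alone) where the interval excluded 1, at 20 or more UMIs or fragments. Gene spans are those of GENCODE M21. The ratios were tested on simulated data with counting error only. Such data cannot show errors from doublets, from UMIs clumped in single nuclei or from differences between embryos. Members, lists and markers were chosen with earlier results of these data known. All members were named, and of each list up to 3 called genes per direction by size of ratio; other genes were added after their values were seen. Reads of near-identical copies cannot be told apart.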

Additional observations from a re-analysis of the deposited data

How the results depend on the processing

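The groups were redrawn 9 ways, and the fold, the minimum count, the scaling and the peak window were varied. The 24 genes called higher in RNA ranged from 22 to 25 over these alternatives and the 18 promoters from 13 to 21. The share of all genes called higher ranged with them from 10.9% at 4-fold to 28.7% at 1.5-fold. For all promoters it ranged from 7.64%, with nuclei defined by marker UMIs, to 20.1% at 1.5-fold. The median log2 ratio in RNA, 4.86, became 3.91 with clusters from ATAC alone, 4.55 with no doublet removal, 5.49 at the automatic Scrublet threshold, 5.33 in nuclei of at most 30000 UMIs, 5.71 with carryover subtracted, 4.19 with somatic classes weighted equally and 5.25 without the germ-like subclusters of high doublet score, an alternative chosen after seeing the data. The promoter median, 2.51, became 1.75 with germ nuclei defined by a UMI of each marker and somatic nuclei by none. The 15 genes above carryover in pooled somatic nuclei became 10 to 19 in the other groupings. With germ and somatic nuclei defined by UMIs all 31 genes were above carryover in place of 15, because the choice sets carryover to 0. The number called between germ-like subclusters, 16, became 7 when nuclei were split at the median share of cell cycle UMIs. No gene called in either assay changed direction. Single promoters rest on few fragments a group, which limits them, and 1 library per assay leaves variation between embryos unmeasured.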
